A study of Mus musculus with 8 samples.

Results

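The 49 genes described here encode RNA-binding proteins that steer splicing or the later fate of mRNA. They were taken by symbol from a given list, and all 49 were found among the 24033 gene symbols of a mouse count table. They fall into the Hu, Nova, Celf, Mbnl, Ptb, Rbfox, SR, hnRNP, mRNA localisation and Zfp36 groups. RNA came from lumbar dorsal root ganglia, L4 to L6, which hold the cell bodies of sensory neurons with their glia. In the injury group (n = 4 libraries) the sciatic nerve of that side had been crushed 24 h earlier. In the naive group (n = 4) the ganglia came from the opposite side, so naive means the uninjured side and not an untouched animal. Each repeat took ganglia of 2 mice. The sources used here give no strain, genotype, sex or age and name no sham operation. The labels call the ganglia dissociated.

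RNA-binding proteins choose which exons are kept and how long an mRNA lasts. SR proteins bind exons and favour their inclusion, hnRNPs often oppose them, and the Nova, Rbfox, Celf, Mbnl and Ptb families give tissues their own splice forms. Hu proteins stabilise mRNAs with AU-rich elements, which Zfp36 and Khsrp mark for decay. Igf2bp, Fmr1, Pum2 and G3bp proteins transport mRNAs or control their storage and translation. Sensory axons translate localised mRNAs after nerve injury.

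The libraries read transcript ends and 1 value per gene was deposited, so neither splice forms nor the choice of poly(A) site could be measured. Library totals were 15422482 to 29368107 counts. Levels are CPM, counts scaled to equal library size, after TMM scaling, and they are not compared between genes. The injury labels were checked with Atf3, an injury-induced transcription factor, which had 63.6, 48.98, 73.1 and 49.5 CPM naive and 277, 313, 357 and 337 CPM injury. On the second principal component of all tested genes, naive replicate 1 (27.0) and injury replicate 1 (14.3) stood apart from the other libraries (-12.6 to -1.61). Summed markers overlapped between groups for neurons (7 genes, 20260 to 22608 CPM naive and 21156 to 25074 CPM injury) and satellite glia (7 genes, 1848 to 2270 and 2050 to 2262 CPM). They also overlapped for Schwann cells (7 genes, 737 to 1111 and 730 to 937 CPM), macrophages (8 genes, 10.4 to 21.6 and 13.1 to 22.3 CPM) and endothelium (6 genes, 99.2 to 144 and 110 to 179 CPM). The ranges of fibroblasts (5 genes, 148 to 298 and 157 to 239 CPM) and neutrophils (4 genes, 130 to 423 and 119 to 245 CPM) overlapped as well. Erythrocyte markers summed to 2.45 to 14.0 and 5.51 to 10.6 CPM, and 3 T cell markers to at most 0.501 CPM. Of all markers, Glul of satellite glia (290.0 ± 16.3 to 408 ± 7.59 CPM) and Pdgfra of fibroblasts (1.60 ± 0.376 to 3.61 ± 0.362 CPM) passed the test. Their lists were mixed. Of the satellite glia markers 4 changed upward and 3 downward, and of the fibroblast markers 2 upward and 3 downward. In a bulk sample, fewer cells of a type and less RNA per cell cannot be told apart.

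A small set of these genes rose, and most changed little. Of the 49, 47 passed the filter on low counts, and 5 rose: Rbfox2, Elavl3, Srsf3, Srsf7 and Igf2bp2. The test was edgeR's quasi-likelihood test, with Benjamini-Hochberg adjustment over 13639 genes and calls at an adjusted p under 0.05. Over all genes tested, 12.6% were called, 8.12% as higher and 4.47% as lower; 10.6% of the members tested were called higher and 0% lower, so the share that rose was near the background. At an unadjusted p under 0.05, 7 members were higher and 0 lower in edgeR, 8 and 0 in DESeq2, and 7 and 0 in limma-voom. These counts were 9 and 2 with the replicate block and 5 and 5 with scaling by library totals. Over all 13639 genes, 24.6% had an unadjusted p under 0.05 in edgeR, counting both directions. The median log2 fold change (injury minus naive) was 0.04 over the members tested and -0.004 over all genes. The median size of the log2 change, sign ignored, was 0.10 over the members and 0.18 over all genes. These medians were not matched for level, and low counts widen log2 changes. A mean of at least 5 CPM was reached by 42 of the 47 members and by 10113 of the 13639 genes. The medians therefore do not show that the members responded less than other genes. Every injury library lay above every naive one for 8.51% of the members tested, and below for 2.13%. Over all genes tested these shares were 9.80% and 7.02%. Rises were 64.5% of all calls, and 47.0% when libraries were scaled by their totals. The count of 5 fell to 3 without naive replicate 2 or 3 or without injury replicate 3 or 4, and to 2 without injury replicate 2. Without naive replicate 1, 1 member was called lower, which was Rbfox3.

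**Figure D1:**
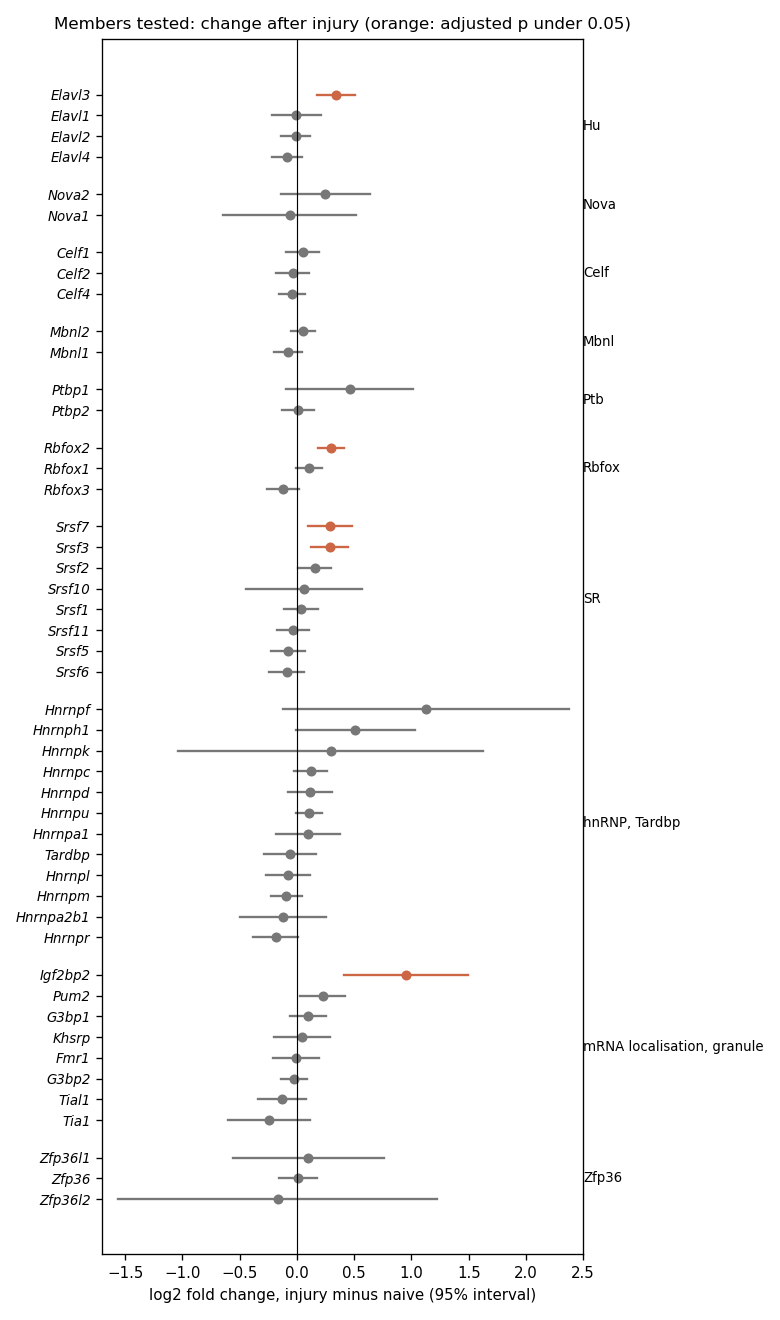
Log2 fold change of the 47 tested members (x axis, injury minus naive) with 95% intervals, grouped by family on the y axis; colour marks the 5 members called higher. Most points lie close to 0, and Hnrnpf, Hnrnpk and Zfp36l2, counted under 1.5 CPM, have wide intervals.

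Promoters of the members that rose are shown because these genes were called in the same direction. RefSeq windows on GRCm38.p6, from 250 bases before to 50 after the annotated start, were used for Elavl3, Igf2bp2, Srsf3 and Srsf7, and none was used for Rbfox2. They are written 5′ to 3′ on the gene's strand. Capitals mark matches on either strand to TGANTCA (the AP-1 motif), TGACG (part of the cAMP response element), CCAAT and TATAAA. The motifs were chosen with the results known.
Elavl3, chr9:22051974-22052273, minus strand: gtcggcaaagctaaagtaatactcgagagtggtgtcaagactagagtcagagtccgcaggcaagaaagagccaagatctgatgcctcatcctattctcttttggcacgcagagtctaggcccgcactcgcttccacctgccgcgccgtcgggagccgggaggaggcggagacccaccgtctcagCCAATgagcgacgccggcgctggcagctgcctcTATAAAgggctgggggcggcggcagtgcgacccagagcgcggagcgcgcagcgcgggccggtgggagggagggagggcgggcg
Igf2bp2, chr16:22163250-22163549, minus strand: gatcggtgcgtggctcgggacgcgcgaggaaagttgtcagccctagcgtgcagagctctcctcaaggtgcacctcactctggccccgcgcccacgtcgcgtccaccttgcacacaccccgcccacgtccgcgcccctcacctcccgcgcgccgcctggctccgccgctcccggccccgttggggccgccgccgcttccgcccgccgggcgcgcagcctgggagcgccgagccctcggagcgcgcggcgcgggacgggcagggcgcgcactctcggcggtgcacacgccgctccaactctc
Srsf3, chr17:29032410-29032709, plus strand: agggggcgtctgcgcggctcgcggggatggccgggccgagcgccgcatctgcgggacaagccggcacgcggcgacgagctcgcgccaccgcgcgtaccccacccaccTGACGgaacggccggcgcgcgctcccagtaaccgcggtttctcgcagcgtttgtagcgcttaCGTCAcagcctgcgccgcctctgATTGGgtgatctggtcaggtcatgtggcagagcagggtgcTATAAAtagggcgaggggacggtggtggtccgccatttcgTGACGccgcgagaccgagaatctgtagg
Srsf7, chr17:80207256-80207555, minus strand: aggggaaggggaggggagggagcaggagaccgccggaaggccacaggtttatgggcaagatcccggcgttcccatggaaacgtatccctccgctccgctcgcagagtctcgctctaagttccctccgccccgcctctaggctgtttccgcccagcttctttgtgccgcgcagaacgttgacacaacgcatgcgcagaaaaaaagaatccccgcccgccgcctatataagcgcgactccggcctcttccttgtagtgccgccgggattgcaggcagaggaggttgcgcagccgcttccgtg

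The Srsf3 window held 3 TGACG matches, 1 CCAAT and 1 TATAAA, and the Elavl3 window 1 CCAAT and 1 TATAAA. The Srsf7 and Igf2bp2 windows held no match to these letters. None of these 4 windows held TGANTCA. Of 45 members with at least 1 window, 20 held TGACG in any window (44.4%), 25 CCAAT (55.6%), 8 TATAAA (17.8%) and 3 TGANTCA (6.67%). Among all 32841 single windows the shares were 20.8%, 37.4%, 13.6% and 7.81%; genes with several windows have more chances of a match. A match describes letters and not a bound site.

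Among the Rbfox proteins, which bind near alternative exons of neurons and muscle, Rbfox2 rose and its relatives did not pass the test. Rbfox2 (chromosome 15, 77078990 to 77307004, minus strand, GRCm38) had 324, 316, 306 and 297 CPM in naive replicates 1 to 4. It had 393, 393, 356 and 382 CPM in injury replicates 1 to 4, and later values keep this order. Every injury library lay above every naive one, as in 9.80% of all genes tested. The fold was 1.23 (log2 fold change 0.29 ± 0.06 SE, edgeR adjusted p = 0.000566).

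Rbfox1 had 399.9, 427, 434 and 431 CPM naive and 430.5, 475, 458 and 457 CPM injury (log2 fold change 0.11 ± 0.05, edgeR adjusted p = 0.229), with injury replicate 1 below 2 naive libraries. Rbfox3, the neuronal antigen NeuN, had 406, 469.6, 511 and 512 CPM naive and 406, 417, 458 and 467 CPM injury. The libraries of number 1 were the lowest of their groups. For Rbfox3 the edgeR adjusted p was 0.301 (log2 fold change -0.12 ± 0.07), and 0.0488 without naive replicate 1 (log2 fold change -0.18).

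The log2 ratio of Rbfox2 to Rbfox3 counts within a library, which does not depend on library scaling, averaged -0.61 ± 0.21 (SD) naive and -0.20 ± 0.15 injury. The difference of 0.41 did not pass the exact two-sided permutation test over libraries (n = 4 and 4, p = 0.0571, and 0.450 adjusted over the 9 pairs of relatives compared). The smallest p possible is 0.0286. Within numbers 1 to 4 the difference was 0.28, 0.49, 0.38 and 0.50.

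**Figure D2:**
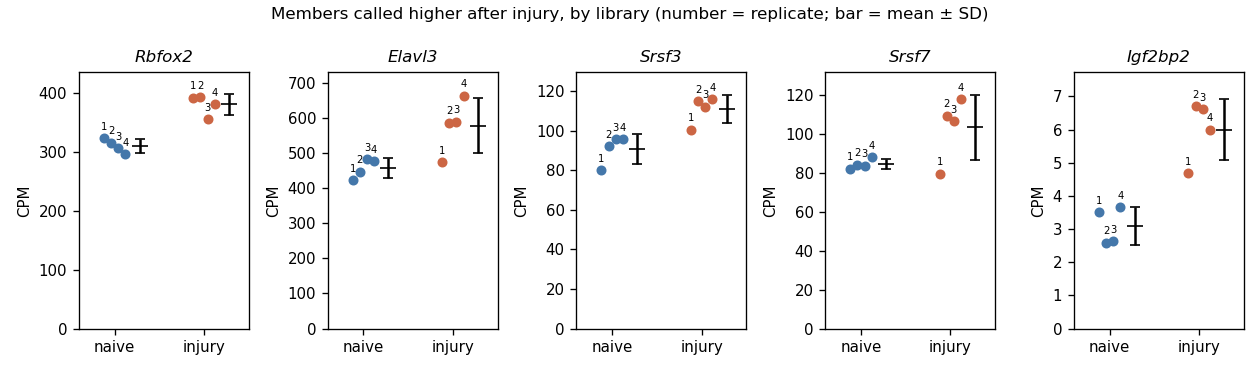
CPM of the 5 members called higher (y axes start at 0) in naive and injury libraries, numbered by replicate, with mean ± SD. For Elavl3, Srsf3, Srsf7 and Igf2bp2 the lowest injury library is replicate 1.

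Of the Hu family, the neuronal member Elavl3 (HuC) rose. Elavl3 (chromosome 9, 22015005 to 22052023, minus strand) had 422, 447, 482 and 477 CPM naive and 473, 586, 589 and 663 CPM injury. Injury replicate 1 lay below 2 naive libraries, so the groups overlapped, while the other injury libraries lay above all naive ones. The fold was 1.26 (log2 fold change 0.34 ± 0.08, edgeR adjusted p = 0.00672).

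Elavl4 (HuD), which stabilises Gap43 mRNA, had 857, 844, 819 and 749.8 CPM naive and 674, 776, 773 and 852 CPM injury. These values overlapped (log2 fold change -0.09 ± 0.06, edgeR adjusted p = 0.425). Elavl2 (HuB) had 991, 1111, 1049.9 and 970.0 CPM naive and 1025, 1123, 897 and 1049.8 CPM injury. Elavl1 (HuR), which most cells use, had 36.02 ± 2.97 CPM naive and 35.9 ± 2.63 CPM injury (SD). The 95% intervals of their log2 fold changes were -0.14 to 0.12 and -0.22 to 0.21. The log2 ratio of Elavl1 to Elavl4 differed by 0.09 between groups (exact permutation p = 0.400, 0.514 adjusted over the 9 pairs).

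Among the 8 SR proteins, Srsf3 and Srsf7, which also act in mRNA export, rose. Srsf3 (chromosome 17, 29032628 to 29043373, plus strand) had 79.9, 92.2, 95.7 and 95.6 CPM naive and 100.5, 115, 112 and 116 CPM injury, with no overlap between groups. The fold was 1.22 (log2 fold change 0.29 ± 0.08, edgeR adjusted p = 0.0131). Leaving out injury replicate 2 ended the Srsf3 call (adjusted p = 0.0523), as did leaving out injury replicate 4 (0.0542).

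Srsf7 (chromosome 17, 80200080 to 80207307, minus strand) had 82.1, 84.2, 83.7 and 87.9 CPM naive and 79.6, 109, 106 and 118 CPM injury. Injury replicate 1 was the lowest of all 8 libraries and the other 3 injury libraries were the highest. The fold was 1.22 (log2 fold change 0.29 ± 0.09, edgeR adjusted p = 0.0407). This call was lost without naive replicate 1, 2, 3 or 4 (adjusted p = 0.0755, 0.0978, 0.110 and 0.0647) and without injury replicate 2, 3 or 4 (0.136, 0.107 and 0.190). It was also lost with library totals (0.0847) and limma-voom (0.0776).

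The other 6 SR genes did not pass the test. Srsf2 had 137, 133, 132 and 130.0 CPM naive and 133, 141, 156 and 162 CPM injury. Its log2 fold change was 0.16 ± 0.07 (edgeR adjusted p = 0.162), and the adjusted p was 0.0395 without both libraries of number 1. Mettl23 overlaps the end of Srsf2 on the opposite strand, and its log2 fold change was -0.32 (edgeR adjusted p = 0.569). Srsf10, picked out after its values were seen, had 12.5, 16.9, 18.5 and 16.3 CPM naive and 8.05, 21.2, 18.3 and 19.9 CPM injury. The libraries of number 1 were again the lowest of each group. Srsf6 had 86.3, 86.4, 88.6 and 88.5 CPM naive and 79.2, 79.3, 88.7 and 81.6 CPM injury (log2 fold change -0.09 ± 0.07, edgeR adjusted p = 0.510), and the groups overlapped. Srsf1, Srsf5 and Srsf11 had log2 fold changes of 0.04, -0.08 and -0.03.

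Among proteins of mRNA transport and storage, Igf2bp2 rose. Its family binds and protects mRNAs such as that of Igf2. Igf2bp2 (chromosome 16, 22059009 to 22163299, minus strand) was sparsely counted, with 56, 57, 59 and 109 counts naive and 106, 144, 129 and 99 counts injury. After scaling it had 3.51, 2.59, 2.63 and 3.67 CPM naive and 4.69, 6.70, 6.62 and 5.99 CPM injury, with no overlap. The fold was 1.93 (log2 fold change 0.95 ± 0.26, 95% interval 0.41 to 1.49, edgeR adjusted p = 0.0156). The call was lost without naive replicate 2 (adjusted p = 0.0528) or 3 (0.0576) and without injury replicate 2 (0.0564) or 3 (0.0511).

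Igf2bp1, the zipcode-binding protein that carries beta-actin mRNA, had 8 counts in naive replicate 4 and 0 in the other libraries. Igf2bp3 had 0 counts in all 8 libraries. Malsu1, which overlaps the end of Igf2bp3 on the opposite strand, had a mean of 37.4 CPM naive and 38.2 CPM injury. The part of this overlap in the 0 counts was not tested. A count of 0 allows up to 3 counts, or 0.101 to 0.188 CPM by library, which covers counting error only, so lower levels were not detectable at this depth.

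Pum2, a Pumilio repressor of mRNAs, had 117, 93.3, 81.2 and 87.8 CPM naive and 98.4, 121, 112 and 112 CPM injury. Naive replicate 1 was the highest of its group and injury replicate 1 the lowest of its own. The edgeR adjusted p was 0.131 (log2 fold change 0.23 ± 0.09). It was 0.00575 without naive replicate 1 (log2 fold change 0.34) and 0.000838 without both libraries of number 1 (0.39).

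The stress granule proteins did not pass the test. G3bp1, which nucleates the granules, had 77.99 ± 2.00 CPM naive and 83.4 ± 5.35 CPM injury, and G3bp2 had 612 ± 35.3 CPM naive and 601 ± 36.6 CPM injury. Tia1, a granule protein that also promotes weak splice sites, had 11.04, 12.4, 10.4 and 10.5 CPM naive and 9.69, 7.73, 10.4 and 9.57 CPM injury (log2 fold change -0.25 ± 0.17, edgeR adjusted p = 0.422). The injury libraries of Tia1 all lay below the naive ones, as in 7.02% of all genes tested, by a narrow margin. Its relative Tial1 had 41.3 ± 3.78 CPM naive and 37.8 ± 2.32 CPM injury. Gm44790 overlaps the end of Tia1 on the same strand. Fmr1, the fragile X protein gene, had 57.7 ± 4.36 CPM naive and 57.3 ± 7.46 CPM injury, and Khsrp had 29.2 ± 3.19 CPM naive and 30.1 ± 3.89 CPM injury.

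The Zfp36 proteins, which recruit deadenylases to AU-rich elements, did not pass the test. Zfp36 (tristetraprolin) had 84.9 ± 6.47 CPM naive and 85.5 ± 6.02 CPM injury, with a 95% interval of -0.15 to 0.17 for the log2 fold change. Zfp36l1 had 77.7, 54.9, 51.1 and 47.2 CPM naive and 95.1, 49.9, 50.5 and 50.9 CPM injury. The libraries of number 1 were the highest of each group. Summed endothelial markers were also highest there, at 144 and 179 CPM, while the remaining naive libraries had 99.2 to 111 CPM and the remaining injury ones 110 to 138 CPM. The single markers differed. Pecam1, Kdr and Emcn were highest there in both groups, and Cdh5 and Cldn5 in the naive group only. Flt1 was highest there in neither group, with 22.7 CPM in naive replicate 1 and 25.7 CPM in injury replicate 1. The part of endothelium in the Zfp36l1 values was not tested. Zfp36l2 had 1.44, 0.228, 0.446 and 1.31 CPM naive and 0.575, 0.698, 0.924 and 0.848 CPM injury.

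**Figure D3:**
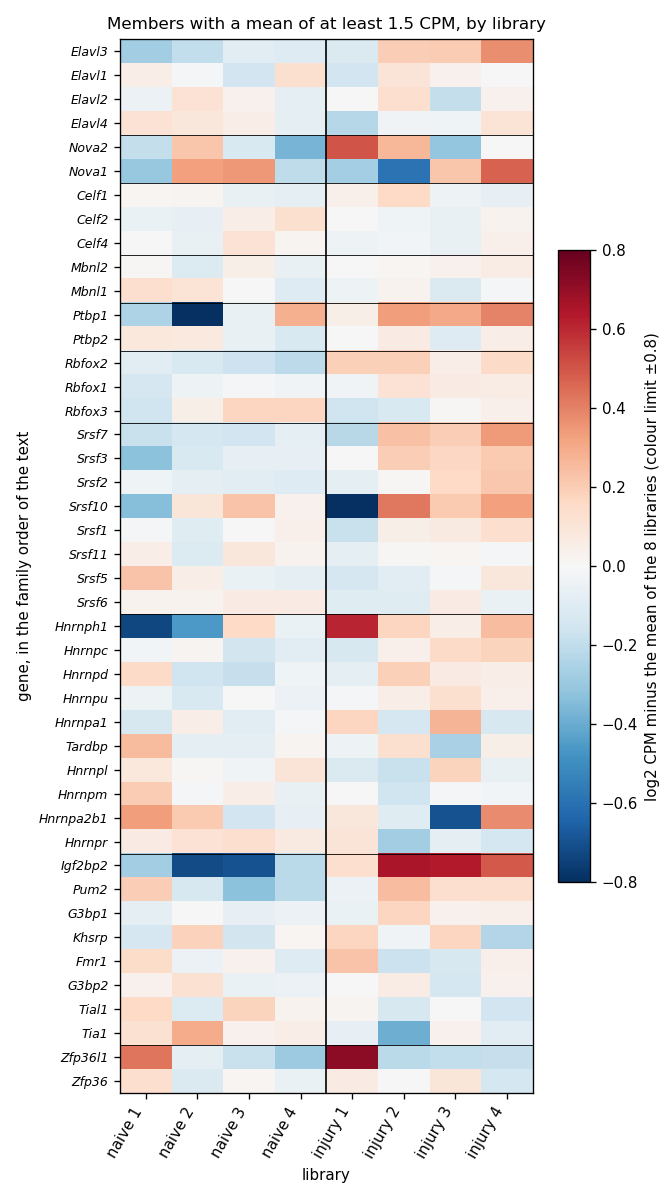
Log2 CPM of 44 members with a mean of at least 1.5 CPM (rows, in family order) minus the gene's mean over the 8 libraries (columns), with colours limited at 0.8. The largest deviation is that of Ptbp1 in naive replicate 2 (2.37 CPM). In the libraries of number 1, Zfp36l1 is the highest and Srsf10 the lowest of each group.

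None of the 12 hnRNP genes, Tardbp (TDP-43) among them, passed the test in edgeR, DESeq2 or limma-voom. At an unadjusted p under 0.05 there were 0, 1 and 0, against 24.6% of all genes in edgeR. The hnRNPs coat nascent transcripts, and many repress exons. Hnrnph1 had 3.14, 3.78, 5.80 and 5.01 CPM naive and 7.92, 5.87, 5.39 and 6.18 CPM injury (log2 fold change 0.51 ± 0.25, edgeR adjusted p = 0.217). Injury replicate 1 was the highest and the groups overlapped. Hnrnpr, a partner of axonal beta-actin mRNA, had 49.6, 51.4, 52.05 and 49.9 CPM naive and 51.1, 39.1, 45.1 and 43.1 CPM injury. Injury replicate 1 lay among the naive libraries and the other injury libraries lay below them (log2 fold change -0.19 ± 0.10, edgeR adjusted p = 0.239).

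Hnrnpu, a nuclear scaffold protein, had 347 ± 12.7 CPM naive and 374 ± 14.4 CPM injury, and Cox20, which overlaps its end on the opposite strand, had a log2 fold change of -0.02. Hnrnpc had 177 ± 8.91 CPM naive and 193 ± 18.2 CPM injury, and Hnrnpm had 205 ± 16.9 CPM naive and 192 ± 9.67 CPM injury. Tardbp, whose protein represses cryptic exons, had 39.7 ± 4.41 CPM naive and 38.04 ± 4.26 CPM injury, and Masp2 at its end had 0 CPM. Hnrnpa1, Hnrnpa2b1, Hnrnpd and Hnrnpl had log2 fold changes of 0.10, -0.12, 0.11 and -0.08. Since the sources used here do not say whether counting used strand, overlapping genes on opposite strands cannot be told apart with certainty.

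Some of these genes have transcript ends that also occur in other annotated genes, so their counts are uncertain. Of the distinct 50-base runs in the last 100 bases of annotated coding transcripts of Hnrnpf, 63.8% also occurred in transcripts of 7 other genes, among them Gm7446 and Gm6430. For Hnrnpk the share was 51.0% (2 other genes), for Nova1 33.3% (Gm33869, annotated within Nova1 on the same strand) and for Ptbp1 27.8% (2). The shares were 13.0% for Hnrnpc, 6.86% for Zfp36l1 and 6.21% for Hnrnpr, and 0 for the other 42 members. Hnrnpf had 0.565 ± 0.0877 CPM naive and 1.25 ± 0.430 CPM injury (log2 fold change 1.13 ± 0.60, edgeR adjusted p = 0.263). All 4 injury libraries were above the naive ones, as in 9.80% of all genes tested. Hnrnpk had 0.731 ± 0.256 CPM naive and 0.903 ± 0.539 CPM injury. The part of shared ends in these levels was not tested. For the 5 genes that rose the share was 0, and no annotated gene overlapped their last 1000 bases.

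The Nova, Celf, Mbnl and Ptb splicing regulators did not pass the test in edgeR, DESeq2 or limma-voom, and 0 had an unadjusted p under 0.05. Over all genes tested, 24.6% had such a p in edgeR. Celf1, which binds GU-rich RNA, had 111, 111, 105 and 104 CPM naive and 113, 122, 106 and 105 CPM injury. Its relative Celf4 had 358, 343, 388 and 364 CPM naive and 348, 353, 343 and 369 CPM injury. Both overlapped between groups, and Celf1, Celf2 and Celf4 had 95% intervals of -0.10 to 0.20, -0.18 to 0.11 and -0.15 to 0.07 for the log2 fold change. Mbnl1, which drives adult splice forms, had 408, 400.4, 373 and 347 CPM naive and 361, 379, 343 and 368 CPM injury. Its relative Mbnl2 had 571, 526, 585 and 545 CPM naive and 566, 574, 582 and 592 CPM injury, and both overlapped. Their log2 ratio was lower on the injured side in 4 of 4 number-matched pairs, by a mean difference of -0.13 (exact permutation p = 0.200, 0.450 adjusted over the 9 pairs).

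Ptbp1 represses neuronal exons in non-neuronal cells and gives way to Ptbp2 in neurons. Ptbp1 had 4.14, 2.37, 4.73 and 5.99 CPM naive and 5.09, 6.19, 6.06 and 6.48 CPM injury (log2 fold change 0.46 ± 0.27, edgeR adjusted p = 0.316). Naive replicate 2 stood lowest. Plppr3 and Gm17134 overlap the end of Ptbp1 on the opposite strand. Ptbp2 had 170.1, 169, 154 and 147 CPM naive and 161, 168, 149.6 and 167 CPM injury, with a 95% interval of -0.13 to 0.15 for the log2 fold change. The log2 ratio of Ptbp1 to Ptbp2 differed by 0.52 between groups (exact permutation p = 0.200, 0.450 adjusted over the 9 pairs), and by 0.24 to 0.75 with 1 library left out.

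Nova1, a neuronal splicing regulator, had 3.64, 5.64, 5.71 and 3.90 CPM naive and 3.72, 2.98, 5.24 and 6.24 CPM injury. Its relative Nova2 had 10.04, 13.4, 10.5 and 8.85 CPM naive and 16.2, 13.8, 9.24 and 11.4 CPM injury, and both overlapped between groups. None of the 9 pairs of relatives passed the exact permutation test, which does not use the pairing by number (adjusted p 0.450 to 0.857). An exact sign-flip test within the 4 numbers cannot give a p below 0.125, which Rbfox2 to Rbfox3, Mbnl1 to Mbnl2 and G3bp1 to G3bp2 reached. The remaining differences in log2 ratio were 0.08 for Celf1 to Celf2 (0.03 to 0.13 with 1 library left out), 0.12 for G3bp1 to G3bp2 (0.08 to 0.16, positive in 4 of 4 number-matched pairs), -0.12 for Tia1 to Tial1 (-0.19 to -0.01), -0.05 for Zfp36 to Zfp36l1 (-0.16 to 0.16) and -0.31 for Nova1 to Nova2 (-0.54 to -0.08).

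A missed threshold does not show that a level stayed the same, and the intervals say how much change the data allow. Of the 42 members tested and not called, 33 had a 95% interval within a 1.5-fold change in either direction, and 27 within 1.25-fold. The 9 with wider intervals were Nova1, Nova2, Ptbp1, Hnrnpf, Hnrnph1, Hnrnpk, Tia1, Zfp36l1 and Zfp36l2. The median standard error of the log2 fold change was 0.07 for the 35 members above 20 CPM.

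Some other genes of RNA processing were called as well. Of 85 further splicing, hnRNP, spliceosome and mRNA regulator genes, 81 were tested, with a median log2 fold change of 0.03. Of those tested, 4 rose (4.94%) and 2 fell (2.47%), where 8.12% and 4.47% of all genes did. These lists were chosen with earlier results of these data known, so their shares cannot be weighed against those of all genes. Of 7 SR protein kinases and importer genes, 0 were called in edgeR, DESeq2 and limma-voom, with 2 at an unadjusted p under 0.05 in each. The same counts, 0 and 2, were found for 18 regulators of mRNA transport, translation and decay. Over all genes tested, 24.6% had an unadjusted p under 0.05 in edgeR. Of 20 core spliceosome genes 1 rose, and of 16 other hnRNP and FET genes 1 rose. Of 10 other SR-related genes 1 rose and 1 fell, as did 1 and 1 of 10 tested tissue splicing regulators.

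Srrm3 and Srrm4, which promote neuronal microexons, moved in opposite directions. Srrm3 (chromosome 5, 135806890 to 135874772, plus strand) had 29.5, 36.00, 34.5 and 28.1 CPM naive and 19.9, 21.98, 19.8 and 21.2 CPM injury, with no overlap. It fell by 0.63 ± 0.12 on the log2 scale (edgeR adjusted p = 0.000535). Srrm4 (chromosome 5, 116439275 to 116591817, minus strand) had 5.90, 5.92, 6.83 and 4.78 CPM naive and 7.43, 10.99, 10.3 and 10.8 CPM injury, again with no overlap. It rose 1.69-fold (log2 fold change 0.76 ± 0.21, edgeR adjusted p = 0.0149). This call did not survive leaving out naive replicate 4 (0.0610) or injury replicate 2 (0.0584) or 4 (0.0595). Srrm4os, antisense at its end, had 0 CPM.

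Celf6, a Celf relative, fell, with 178 ± 4.56 CPM naive and 146 ± 10.8 CPM injury (log2 fold change -0.29 ± 0.07, edgeR adjusted p = 0.00356). Ptbp3, a Ptb relative, rose, with 95.2 ± 5.75 CPM naive and 114 ± 6.16 CPM injury (log2 fold change 0.26 ± 0.07, edgeR adjusted p = 0.0149). The Ptbp3 call was lost without naive replicate 2 (0.0705) or 3 (0.0752), without injury replicate 3 (0.0554) and with library totals (0.0623). U2af1, which recognises the 3′ splice site, rose, with 112 ± 5.40 CPM naive and 136 ± 13.1 CPM injury (log2 fold change 0.29 ± 0.07, edgeR adjusted p = 0.0102), but not without injury replicate 3 (0.0610). Of its end runs, 51 of 102 occurred in 2 other genes.

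Hnrnpab rose, with 167 ± 13.6 CPM naive and 193 ± 14.97 CPM injury (log2 fold change 0.21 ± 0.07, edgeR adjusted p = 0.0493). The call was lost without naive replicate 2, 3 or 4 (0.201, 0.120 and 0.114), without injury replicate 2, 3 or 4 (0.118, 0.118 and 0.189), with DESeq2 size factors (0.0537) and with library totals (0.148). Phykpl, which overlaps its end on the opposite strand, had a log2 fold change of -0.12.

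**Figure D4:**
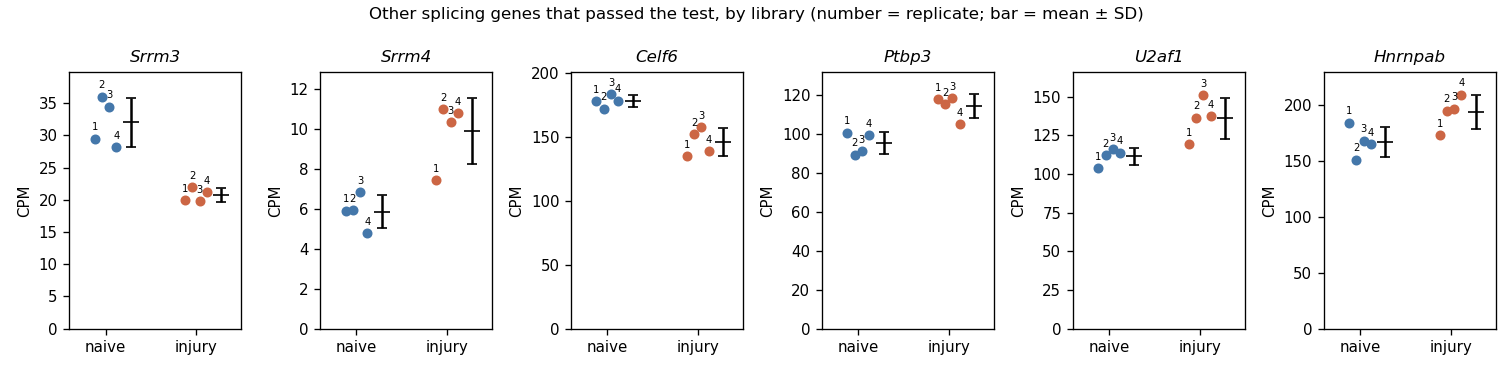
CPM of the 6 other splicing and hnRNP genes that passed the test (y axes start at 0), by library and replicate number, with mean ± SD. Srrm3 and Celf6 are lower and Srrm4, Ptbp3 and U2af1 higher in every injury library than in any naive one, while Hnrnpab overlaps. Over all genes tested, 7.02% were lower and 9.80% higher in this way.

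Of 10 mRNAs known to be carried into axons, 4 rose (Actb, Gap43, Stat3 and Vim) and 1 fell (Nrn1) in edgeR and limma-voom. DESeq2 called 5 higher and 1 lower. Over all genes, edgeR called 8.12% higher and 4.47% lower. The list was chosen with earlier results of these data known, so its share cannot be weighed against these. Actb, the beta-actin mRNA, had 2688 ± 94.5 CPM naive and 2985 ± 54.4 CPM injury, a 1.11-fold rise (edgeR adjusted p = 0.0223). That call was lost without naive replicate 2 (0.0733) or 3 (0.0621), without injury replicate 2 (0.0637) or 3 (0.0654) and with library totals (0.131). Vim, an intermediate filament gene, had 224 ± 32.3 CPM naive and 376 ± 22.6 CPM injury (log2 fold change 0.75 ± 0.08, edgeR adjusted p = 1.88e-06). Gap43, the growth cone protein whose mRNA HuD binds, had 363 ± 24.7 CPM naive and 505 ± 74.3 CPM injury (log2 fold change 0.48 ± 0.09, edgeR adjusted p = 0.00116). Stat3, a transcription factor of the injury response, and Nrn1, a neurite growth protein, had log2 fold changes of 0.42 ± 0.05 and -0.42 ± 0.05. Stat5a and Fars2, which overlap the ends of Stat3 and Nrn1 on the opposite strand, had 0.57 and -0.36. Neither passed the test (edgeR adjusted p = 0.155 and 0.0830). Mean levels were 4.70 CPM naive and 6.95 CPM injury for Stat5a, and 20.4 CPM naive and 15.9 CPM injury for Fars2. These are levels in the ganglion, where transport of an mRNA into axons is not seen.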

How the data were processed

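Per the labels' protocols, QuantSeq 3′ REV libraries were made from ganglion RNA isolated with an RNeasy Mini kit. The authors deposited whole-number read counts per gene symbol, not normalised. The submitters' processing notes name STAR, HTSeq, bcl2fastq 2.17 and the build GRCm38 (mm10). Versions of STAR and HTSeq, gene annotation, strandedness and the handling of reads that fit several places: not given in the sources used here. Of 24060 rows, 27 carried a date in place of a symbol (0.146% to 0.158% of counts) and were left out.

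Genes were kept by filterByExpr, scaled by TMM and tested with edgeR 4.0.16 (R 4.3.3), injury against naive over 8 libraries without a block. Standard errors were derived as the absolute log2 fold change over the square root of F, and 95% intervals from them. Alternatives used DESeq2 1.42.0, limma 3.58.1, other scaling and filters, a replicate block and left-out libraries. The fits were also run on simulated counts with the same dispersion for every gene and no pairs. How many small changes were recovered there is not reported here. The biological coefficient of variation was 17.1%. Libraries of a group differed by more than sampling noise, with chi-square over its degrees of freedom at 8.09 to 19.2. The study design gives both sides of the same mice in a repeat, so equal numbers were read as pairs; deviations of same-numbered libraries correlated at 0.0576 to 0.0902, and each library correlated best with its own number. The main fit has no block. Its p-values therefore measure the spread between the repeats of a group, and not that of differences within a repeat. Without molecular identifiers, reads may repeat a molecule. Positions are from GENCODE M21, where all 49 symbols matched 1 gene. Members, lists, pairs and alternatives were chosen with earlier results of these data known. The rule for names gave values per library for called members, for up to 2 uncalled members per family with the smallest p and up to 4 called genes per further list; members of pairs could be named with their values.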

Additional observations from a re-analysis of the deposited data

Results flagged for a closer look

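In 94 groups of 4 libraries (47 members in 2 groups), 2 had a library far from its nearest neighbour, where about 1 in 20 would be flagged with no real outlier. Zfp36l1 stood at 95.1 CPM in injury replicate 1, against 49.9 to 50.9 CPM in the other injury libraries. Hnrnpm stood at 177 CPM in injury replicate 2, against 195 to 198 CPM in the others.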

How the results depend on the processing

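Across 16 alternatives the count of members called higher was 4 or 5 where all libraries were kept, 2 to 5 with 1 library left out, and 7 without both libraries of number 1. The count called lower stayed 0, except for 1 (Rbfox3) without naive replicate 1, so its range with 1 library left out was 0 to 1. With the replicate block the same 5 members were called and no other member was. The edgeR adjusted p was then 0.000229 for Rbfox2, 0.000110 for Elavl3, 0.00376 for Srsf3, 0.0186 for Srsf7 and 0.0205 for Igf2bp2. Scaling by library totals gave 888 genes higher and 1001 lower over all genes, against 1108 and 609, so that 47.0% of calls were rises in place of 64.5%; over all genes the median log2 fold change moved from -0.004 to -0.06, and 4 members were called, all among the 5. Leaving out 1 library gave 847 to 1156 genes higher and 452 to 703 lower. Rbfox2, Elavl3, Srrm3, Celf6, Gap43, Nrn1, Stat3 and Vim were called in all 16 alternatives. No called gene changed sign. The alternatives for the companion genes were added after seeing the data. With 1 library left out, 3 of 72 exact permutation tests of the ratios gave p = 0.0286, the smallest possible: Rbfox2 to Rbfox3 without naive replicate 1, Ptbp1 to Ptbp2 without naive replicate 4 and G3bp1 to G3bp2 without injury replicate 1. Adjusted over the 9 pairs, the p-values were 0.257 to 1. With a minimum of 5 CPM, 42 members were tested and Igf2bp2 gave no value. Depth limits the members under 5 CPM, whose intervals are wide.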
